A study of Mus musculus with 6 samples.

Results

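The genes of the renin-angiotensin system described here are 7 of the 18193 genes that have a probe set of their own on the array: the receptors Agtr2 and Agtr1a, the angiotensin precursor Agt, and the peptidases Ace, Enpep, Mme and Anpep. They were taken by gene symbol from the platform annotation and are read on 9 probe sets, each gene by the one with the highest mean log2 value, with the other probe sets of Ace and Mme as a check. In the mesenchyme of the embryonic bladder neck and urethra Agtr2 read 84.8-fold, Enpep 52.6-fold and Mme 6.76-fold above the epithelium (n = 3 arrays each), and Agtr1a 8.68-fold, or 3.79-fold without the array mesenchyme 1. The Agt excess rested on that array alone, Ace and Anpep overlapped between the layers, and Anpep read low on every array. The genes were chosen from the measured differences between the layers on these same arrays, some of which were large. Their differences between layers are therefore given as a description, with standard errors and no p-value, and support nothing by themselves.

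Wild-type embryos of the FVB/N strain were taken at day 13 of gestation (Theiler stage 21), sex not recorded, and the layers of the bladder neck with the urethra were parted using trypsin and a needle. The mesenchyme was read on 3 arrays numbered 1, 2 and 3, and the epithelium on 3 arrays numbered 1, 2 and 5, with RNA amplified in 2 rounds before hybridisation. Per the labels the samples were not pooled, and the labels place the cut variously above, below or at the ureters. Whether the arrays represent separate embryos is not stated, and p-values here measure only the spread between these samples, which may be technical.

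Angiotensinogen, the product of Agt, is a secreted protein made mainly by the liver. Renin cuts angiotensin I from it, and angiotensin-converting enzyme, the product of Ace, trims that peptide to angiotensin II, which acts through the type 1 receptor (Agtr1a and Agtr1b in mice) and the type 2 receptor (Agtr2). Surface peptidases then shorten the hormone: aminopeptidase A (Enpep) makes angiotensin III from angiotensin II, aminopeptidase N (Anpep) cuts angiotensin III further, and neprilysin (Mme) degrades several angiotensin peptides and other small hormones. Agtr2 is known as a receptor of fetal mesenchyme, and mice without it have malformations of the kidney and urinary tract at raised frequency.

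The stretch of 250 bases before the annotated start is shown for 3 of the genes, Agtr2 and Enpep because both read high on all 3 mesenchymal arrays, and Agt because it read low on all arrays but mesenchyme 1. The sequences are from RefSeq on build GRCm38.p6, whose promoter table held entries for 6 of the 7 genes, and Agtr1a is named only. They run 5′ to 3′ along the gene, with capitals marking the letters TATAA and CCAAT on either strand. The Agtr2 stretch lies at chrX:21484374-21484623 (plus strand), the Enpep stretch at chr3:129332750-129332999 (minus strand) and the Agt stretch at chr8:124569707-124569956 (minus strand).
Agtr2: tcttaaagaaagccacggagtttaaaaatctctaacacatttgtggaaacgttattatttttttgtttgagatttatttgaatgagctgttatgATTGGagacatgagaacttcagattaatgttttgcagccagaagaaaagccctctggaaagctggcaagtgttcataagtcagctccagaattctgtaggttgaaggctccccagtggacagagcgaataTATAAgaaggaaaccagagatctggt
Enpep: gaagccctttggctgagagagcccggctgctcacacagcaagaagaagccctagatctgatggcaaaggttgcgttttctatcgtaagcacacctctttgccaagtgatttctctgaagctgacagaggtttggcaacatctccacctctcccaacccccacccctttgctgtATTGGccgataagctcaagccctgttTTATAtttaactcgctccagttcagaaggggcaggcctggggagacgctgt
Agt: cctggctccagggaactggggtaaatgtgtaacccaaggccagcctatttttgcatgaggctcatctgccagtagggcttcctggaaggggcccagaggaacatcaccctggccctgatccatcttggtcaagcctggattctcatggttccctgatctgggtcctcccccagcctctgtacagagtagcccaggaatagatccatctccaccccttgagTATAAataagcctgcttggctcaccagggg
In the Agtr2 stretch the TATAA match begins 26 bases and the CCAAT match 156 bases before the start, in the Enpep stretch 51 and 77 bases before it, and in the Agt stretch the TATAA match begins 30 bases before it. TATAA was found in 22.8% and CCAAT in 33.8% of the 32851 stretches of the table, both strands searched. The Agtr2 stretch was 38.4% G and C with 3 CpG dinucleotides, that of Enpep 52.4% with 6 and that of Agt 55.6% with 0, beside medians of 52.4% and 6 over the table. By contrast the stretches of Anpep and of the upstream start of Ace held 23 and 19 CpG, while that of the other Ace start held 1. For Mme, which has 3 annotated starts, the counts were 2, 27 and 27. Sequence composition thus differed among the genes that read high in mesenchyme, and a match of these letters is not a measured site.

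Signals below are in normalized units, that is, the deposited intensity after quantile normalization of log2(signal + 16), turned back to the linear scale. Differences are mesenchyme minus epithelium of log2(signal + 16), where the added 16 makes the change of a dim gene look smaller than it was. The table used here has no detection calls, so whether a dim probe set was detected on an array is unknown. Probe sets with a mean under about 96.3 units, the 40th percentile, were not tested. Under this filter 5 of the 7 genes passed, and Agt and Anpep did not.

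The array labelled mesenchyme 1 stood apart. Across genes it correlated with mesenchyme 2 and 3 at r = 0.784 and 0.755, whereas mesenchyme 2 and 3 correlated at 0.981. Of 8 liver markers on the array, 7 read over 4-fold above every other array on mesenchyme 1, with a summed signal of 278118 there, 616 and 607 on mesenchyme 2 and 3, and 330 to 1344 on epithelium. Of 9 markers of the intestinal brush border 8 did so (summed 113099 on mesenchyme 1, 690 and 716 on mesenchyme 2 and 3, and 742 to 799 on epithelium), and of 8 kidney tubule markers 4 (12260, then 772 and 671, and 684 to 1359 on epithelium). The layer labels were checked against 10 epithelial markers, which summed to 66864, 13198 and 2870 on mesenchyme 1, 2 and 3 and to 172159 to 191784 on epithelium. The check also used 10 mesenchymal markers, which summed to 221704 to 275507 on mesenchyme and 33451 to 53733 on epithelium. Not every mesenchymal marker kept the layers apart. Twist1 read 467 on mesenchyme 1, below 724 and 545 on epithelium 2 and 5, and Dcn and Lum also overlapped between the layers. The differences of the 7 genes and the counts of called genes in the wider pathway are therefore given with and without mesenchyme 1. Several single genes of the wider pathway and the most similar profiles are given with all arrays only.

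Agtr2, the type 2 receptor, read 8184, 15699 and 12641 on mesenchyme 1, 2 and 3, against 153, 204 and 55.8 on epithelium 1, 2 and 5. The layers did not overlap, and the lowest mesenchymal array, mesenchyme 1, still lay far above the highest epithelial one. The mean log2 value was 13.52 ± 0.48 in mesenchyme and 7.12 ± 0.85 in epithelium (SD, n = 3 each). The difference was 6.41 ± 0.56 (SE), an 84.8-fold excess in mesenchyme, and 6.77 ± 0.64 without mesenchyme 1. Among 13717 tested genes ordered by their difference, Agtr2 stood at rank 6 with all arrays and at rank 6 of 13587 without mesenchyme 1.

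Agtr1a, the main type 1 receptor of mice, read 6223, 615 and 371 on mesenchyme 1, 2 and 3, against 94.5, 187 and 87.4 on epithelium 1, 2 and 5. Mesenchyme 1 was 10.1 times mesenchyme 2 and 16.8 times mesenchyme 3, and the mean log2 value in mesenchyme was 10.17 with that array and 8.88 without it. The Agtr1a difference was 3.12 ± 1.28 (SE, n = 3 each, 8.68-fold) with all arrays and 1.92 ± 0.48 (3.79-fold) without mesenchyme 1. It was 3.87 without mesenchyme 3. Every mesenchymal array lay above every epithelial one in each case. The organ markers above move with the value of mesenchyme 1, and their part in it was not tested. Outside mesenchyme 1 the receptors shared a direction, with differences of 6.77 for Agtr2 and 1.92 for Agtr1a.

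**Figure D1:**
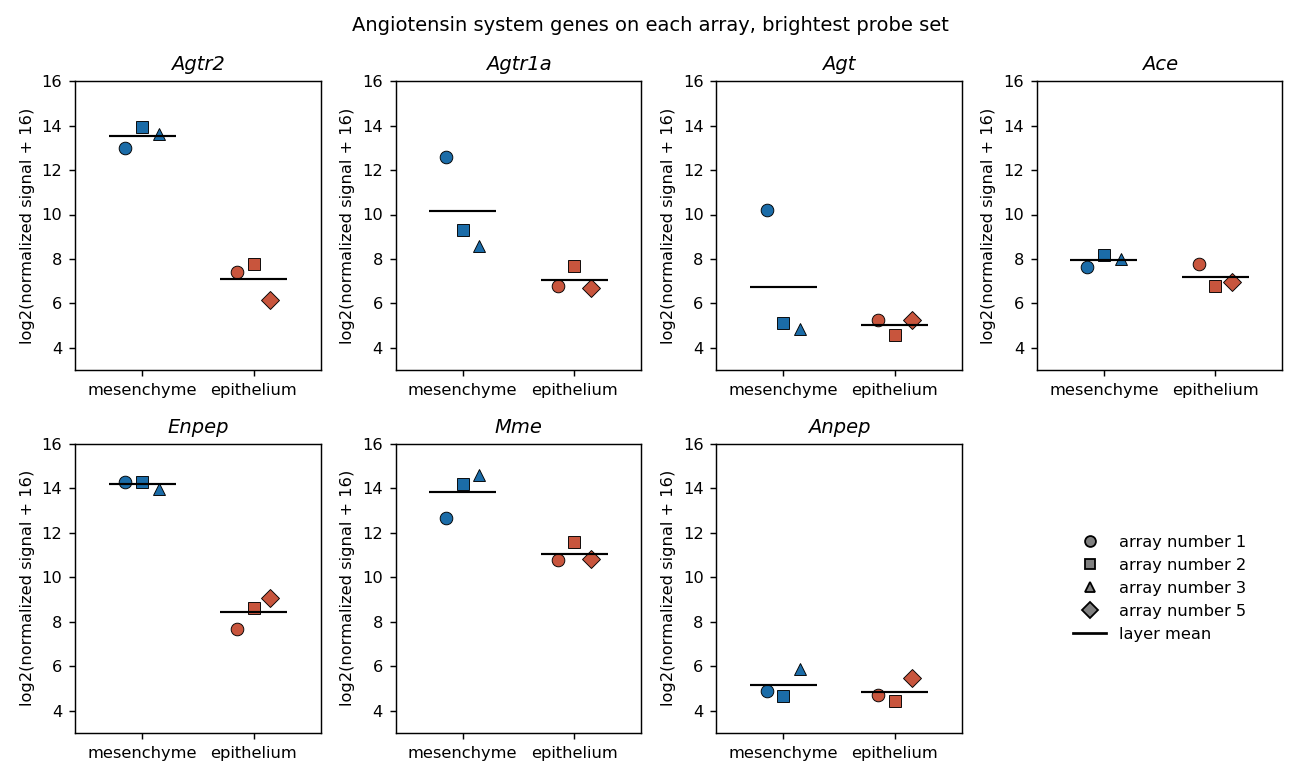
Log2(normalized signal + 16) of each gene on the 3 mesenchymal (blue) and 3 epithelial (red) arrays, with symbols for the array number and a line at each layer's mean. Agtr2, Enpep and Mme sit higher on every mesenchymal array, while Agtr1a and Agt are raised most on mesenchyme 1.

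Agt, the precursor gene, read 1180 on mesenchyme 1 but 18.6 and 12.9 on mesenchyme 2 and 3, against 21.9, 8.0 and 22.2 on epithelium 1, 2 and 5. Leaving aside mesenchyme 1, the layers overlapped, between the 6.83 and 17.9 percentiles of their arrays. The difference was 1.70 ± 1.76 (SE, n = 3 each) with all arrays and -0.04 ± 0.28 without mesenchyme 1, so its sign rested on that array. Mesenchyme 1 was 63.5 times mesenchyme 2 and 91.7 times mesenchyme 3 for Agt. On that same array the liver genes Alb and Apoa1 read 58365 and 36621, against at most 216 and 86.8 on the other 5. Their part in the Agt value was not tested.

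Ace, the converting enzyme known for its expression on endothelium, read 185, 275 and 243 on mesenchyme 1, 2 and 3, against 201, 93.9 and 109 on epithelium 1, 2 and 5. The layers overlapped, since epithelium 1 exceeded mesenchyme 1. The difference was 0.78 ± 0.34 (SE, n = 3 each; 1.72-fold) with all arrays, and 0.93 ± 0.39 without mesenchyme 1, where the layers no longer overlapped. The second Ace probe set disagreed: it read 742, 118 and 27.4 on mesenchyme 1, 2 and 3 and 61.4, 50.8 and 69.6 on epithelium 1, 2 and 5. There mesenchyme 3 was below every epithelial array, and the difference of 1.11 ± 1.21 became 0.00 ± 0.62 without mesenchyme 1. The mean log2 value of this probe set fell under the filter, and the reading of Ace therefore depends on the probe set.

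Enpep, aminopeptidase A, read 19941, 19666 and 16053 on mesenchyme 1, 2 and 3, against 186, 382 and 525 on epithelium 1, 2 and 5. The 3 mesenchymal arrays were close to one another, and the highest epithelial array was far below them. In log2 terms the means were 14.17 ± 0.175 in mesenchyme and 8.46 ± 0.73 in epithelium (SD, n = 3 each). The difference was 5.72 ± 0.43 (SE), a 52.6-fold excess, and 5.75 ± 0.56 without mesenchyme 1. Mesenchyme 1 was 1.01 times mesenchyme 2. Enpep stood at rank 15 of 13717 genes by difference and at rank 14 of 13587 without mesenchyme 1.

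Mme, neprilysin, was lower on mesenchyme 1 than on the other mesenchymal arrays, at 6429, against 18727 on mesenchyme 2 and 24804 on mesenchyme 3, and it read 1734, 3053 and 1788 on epithelium 1, 2 and 5. The layers did not overlap. Its epithelial signals stood between the 79.1 and 84.8 percentiles of their arrays, whereas those of Agtr2 on epithelium lay between the 29.2 and 52.4 percentiles. The difference was 2.76 ± 0.65 (SE, n = 3 each; 6.76-fold) with all arrays and 3.35 ± 0.38 (10.2-fold) without mesenchyme 1. The second Mme probe set was dimmer and read 142, 355 and 932 on mesenchyme 1, 2 and 3, against 111, 183 and 80.7 on epithelium 1, 2 and 5. It overlapped between layers through mesenchyme 1, with differences of 1.50 ± 0.81 with all arrays and 2.17 ± 0.65 without that array. Both probe sets placed mesenchyme 3 highest and mesenchyme 1 lowest within the mesenchyme.

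Anpep, aminopeptidase N, read 13.5, 9.6 and 43.1 on mesenchyme 1, 2 and 3, against 9.7, 5.6 and 27.8 on epithelium 1, 2 and 5. All 6 values lay between the 4.01 and 25.7 percentiles of their arrays, and the layers overlapped. The difference was 0.29 ± 0.48 (SE, n = 3 each), and 0.41 ± 0.56 without mesenchyme 1.

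**Figure D2:**
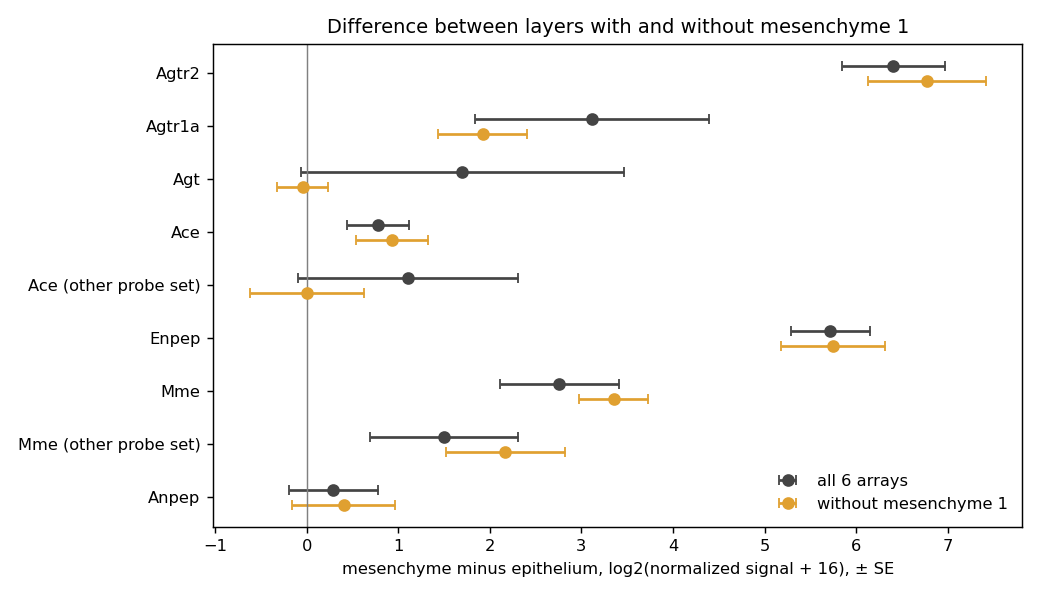
Mesenchyme minus epithelium on the log2(normalized signal + 16) scale with its standard error for each probe set, with all 6 arrays (dark) and without mesenchyme 1 (ochre). Agtr2 and Enpep lie between 5.72 and 6.77 in both, Agtr1a is at 3.12 with all arrays and 1.92 without mesenchyme 1, and Agt at 1.70 and -0.04.

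In all, the arrays of the layers did not overlap for 4 of the 7 genes, all higher in mesenchyme (Agtr2, Agtr1a, Enpep and Mme), and for 5 of 7 without mesenchyme 1, Ace being added. Over all tested genes mesenchyme lay wholly above epithelium for 13.2% with all arrays and 22.3% without mesenchyme 1. Epithelium lay wholly above for 0 of the 7 and for 15.5% and 23.1% of all tested genes. The shares over all tested genes leave out those under the filter, whereas the 7 include Agt and Anpep, which did not pass it. The median difference of the 7 genes was 2.76 with all arrays and 1.92 without mesenchyme 1, beside -0.096 and -0.044 over all genes without the filter. In the order by difference, Agtr1a stood at rank 339 with all arrays and 833 without mesenchyme 1, Mme at 462 and 227, and Ace at 2382 and 1827. Since the 7 were picked with this comparison known, nothing is read from these shares, medians or ranks.

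The summed signals of markers of several cell types were higher on all mesenchymal than on all epithelial arrays, though not every single marker was. The sum of 6 nephric duct markers went the other way, at 2342 to 7881 in mesenchyme and 8566 to 13742 in epithelium. Of these, Ret alone read higher on mesenchyme 2 and 3 (5517 and 4664) than on every epithelial array (1625 to 2774). Of 3 tested nephric duct markers limma called 1 higher in epithelium, where 1.95% of all genes were called. Without mesenchyme 1 it called 1 in each direction. The summed signal of 10 endothelial markers was 17361 to 22538 in mesenchyme and 1136 to 3071 in epithelium, and that of 8 pericyte markers 15838 to 21527 and 5859 to 7565. For 8 smooth muscle markers the sums were 25103 to 53527 in mesenchyme and 5362 to 11173 in epithelium, for 6 neural markers 28466 to 36066 and 856 to 1236, and for 10 leukocyte markers 8413 to 48411 and 3356 to 6561. Acta2, at 20284 to 38894 in mesenchyme and 4049 to 10232 in epithelium, made up most of the smooth muscle sums. Likewise Csf1r, at 5105 to 27484 in mesenchyme and 925 to 3020 in epithelium, made up most of the leukocyte sums in mesenchyme. The pericyte markers Notch3 (2584 to 3068 in mesenchyme and 2570 to 3902 in epithelium), Rgs5 (1570 to 4399 and 960 to 1819), Higd1b and Ndufa4l2 overlapped between the layers. So did Myocd (85.3 to 1404 and 42 to 258) and Smtn (313 to 502 and 322 to 455) of smooth muscle, and the glial marker Sox10 (170 to 199 and 134 to 257). Among leukocyte markers Adgre1 (892 to 3451 and 487 to 2189), Ptprc, Cd68, Aif1, Spi1 and Cd52 overlapped. No list was at 0 on the mesenchymal arrays, although the pericyte markers Higd1b and Ndufa4l2 read at most 115.1 units there. With all arrays limma called 4 of 9 tested endothelial markers, 1 of 6 pericyte, 2 of 8 smooth muscle and 5 of 6 neural markers higher in mesenchyme, and 0 of 9 leukocyte markers, where 4.03% of all genes were called. Without mesenchyme 1 the counts were 6 of 9 endothelial, 2 of 6 pericyte, 3 of 7 smooth muscle, 5 of 6 neural and 2 of 9 leukocyte markers, where 8.17% of all genes were called. In whole layers, fewer cells of a type and less RNA per cell cannot be told apart, and the part of each cell type in the Agtr2, Enpep and Mme signal was not tested. With mesenchyme 1, the array that carries the organ markers, left out, the differences of Agtr2, Enpep and Mme were 6.77, 5.75 and 3.35, beside 6.41, 5.72 and 2.76 with it.

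**Figure D3:**
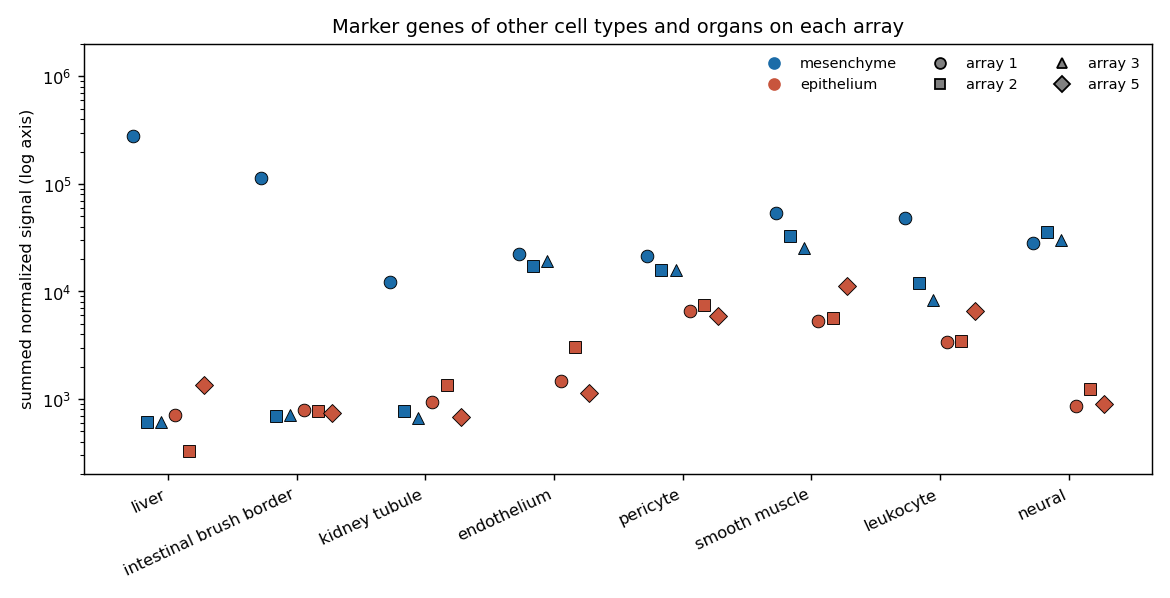
Summed normalized signal (log axis) of marker lists of organs and cell types on each mesenchymal (blue) and epithelial (red) array. The sums of liver, brush border and kidney tubule markers are raised on mesenchyme 1 alone, up to 278118 for liver. Those of endothelial, pericyte, smooth muscle, leukocyte and neural markers are higher on all 3 mesenchymal arrays, though not every single marker is.

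Of 49 further genes, namely precursor-side enzymes, other angiotensin peptidases, other receptors with their partners, and relatives of the member peptidases, 42 had a single-gene probe set and 35 were tested. In limma's fit over all 13717 genes, 1 of the 35 was higher in mesenchyme and 0 higher in epithelium at an adjusted p of 0.05, where 4.03% and 1.95% of all genes were called. At an unadjusted p of 0.05 there were 7, where 19.5% of all genes lay under that value. The median difference of the 35 was 0.23, beside -0.12 over all tested genes. Without mesenchyme 1, 4 of 33 were higher in mesenchyme and 1 in epithelium, where 8.17% and 6.37% of 13587 genes were called, and 8 of 33 had an unadjusted p under 0.05, where 26.4% of all genes did. The median differences were then 0.003 over the 33 and -0.02 over all tested genes.

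The gene called was Aplnr, the apelin receptor, a relative of the type 1 angiotensin receptor that marks endothelium. It read 26127, 17638 and 18943 on mesenchyme 1, 2 and 3, against 6.3, 57.6 and 219.9 on epithelium 1, 2 and 5, a difference of 8.14 ± 0.79 (SE, limma adjusted p = 0.00394). This result was known when the list was written, and without Aplnr 0 of 34 genes were called (6 at an unadjusted p of 0.05). The size depended on the probe sets, at 6.51 with the mean of them and 4.88 with only those of the unique kind. The call was lost with the replicate number as a block, where only the arrays numbered 1 and 2 set the difference (9.05, limma adjusted p = 0.0881). Over the other alternatives the adjusted p lay between 0.00167 and 0.0252.

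On the precursor side 0 of 5 tested genes were called with all arrays. The prorenin receptor gene Atp6ap2 had 39159, 20243 and 19351 units in mesenchyme against 21693, 42517 and 16825 in epithelium, a difference of -0.01 ± 0.40 (limma adjusted p = 0.995). The layers overlapped. Lysosomal cathepsin D, Ctsd, differed by 0.36 ± 0.41 (adjusted p = 0.663). Kng1, the kininogen gene, and Cma1, mast cell chymase, echoed the pattern of Agt. Kng1 read 11382 on mesenchyme 1 and at most 124.7 elsewhere, and Cma1 3012 and at most 115.9. These 2 genes were singled out after their values were seen. Ren1 and Lnpep have no single-gene probe set in the annotation used and were not analysed here.

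Among other angiotensin peptidases 0 of 10 were called. The brightest, carboxypeptidase M (Cpm) and neurolysin (Nln), differed by 0.23 ± 0.29 (limma adjusted p = 0.701) and -0.26 ± 0.29 (adjusted p = 0.651). With the mean of their probe sets these differences were -0.18 and -0.54, neither called, so the sign for Cpm depends on the probe set. Without mesenchyme 1, dipeptidyl peptidase Dpp4 was higher in epithelium (-3.72 ± 0.65, adjusted p = 0.00951 in limma). It read 3528, 119 and 16.4 on mesenchyme 1, 2 and 3 and 1100, 999.8 and 527 on epithelium 1, 2 and 5. With all arrays its difference was -1.77 ± 1.54 (adjusted p = 0.572), and mesenchyme 1 alone lay above the epithelium.

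Of the other receptors and receptor partners, 10 were tested and 1, Aplnr, was called. The G protein genes that type 1 receptors signal through, Gnaq and Gna11, differed by 0.05 ± 0.24 (limma adjusted p = 0.925) and 0.36 ± 0.50 (adjusted p = 0.73). The bradykinin receptor Bdkrb2 was called without mesenchyme 1 (2.43 ± 0.59, adjusted p = 0.0347) but not with it (1.93 ± 0.66, adjusted p = 0.162). Agtr1b, the second type 1 receptor gene, fell under the filter at 70.4, 260.6 and 199.4 units in mesenchyme against 10.7, 247.4 and 14.2 in epithelium. The layers overlapped. Mas1, a receptor for shortened angiotensin, read 2.9 to 27.2 in mesenchyme and 2.1 to 96.0 in epithelium and was not tested either.

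Relatives of the member peptidases had 0 of 11 genes called with all arrays and 2 higher in mesenchyme without mesenchyme 1. One was Trhde, which degrades thyrotropin-releasing hormone and belongs to the aminopeptidase family of Enpep and Anpep. It read 322, 1915 and 4788 on mesenchyme 1, 2 and 3, against 39.8, 136 and 103 on epithelium 1, 2 and 5, without overlap. Its difference was 3.87 ± 0.95 (limma adjusted p = 0.0636) with all arrays and 5.02 ± 0.57 (adjusted p = 0.00201) without mesenchyme 1, and as for Mme the lowest mesenchymal array was mesenchyme 1. The other was Ecel1, of the neprilysin family (2.14 ± 0.61, adjusted p = 0.0979, and 2.41 ± 0.62, adjusted p = 0.0447). The brightest relatives, the leukotriene hydrolase Lta4h and the endothelin-converting enzyme Ece1, differed by 0.42 ± 0.22 (adjusted p = 0.359) and -0.08 ± 0.47 (adjusted p = 0.937). Phex, also of the neprilysin family, differed by 4.41 ± 1.09 (limma adjusted p = 0.0652) with all arrays. It read 4157, 369 and 218 on mesenchyme 1, 2 and 3, against 39.2, 2.0 and 23.6 on epithelium 1, 2 and 5. Without mesenchyme 1 Phex fell under the filter and was not tested. Phex and the genes called only in the fit without mesenchyme 1 were named after their values were seen.

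**Figure D4:**
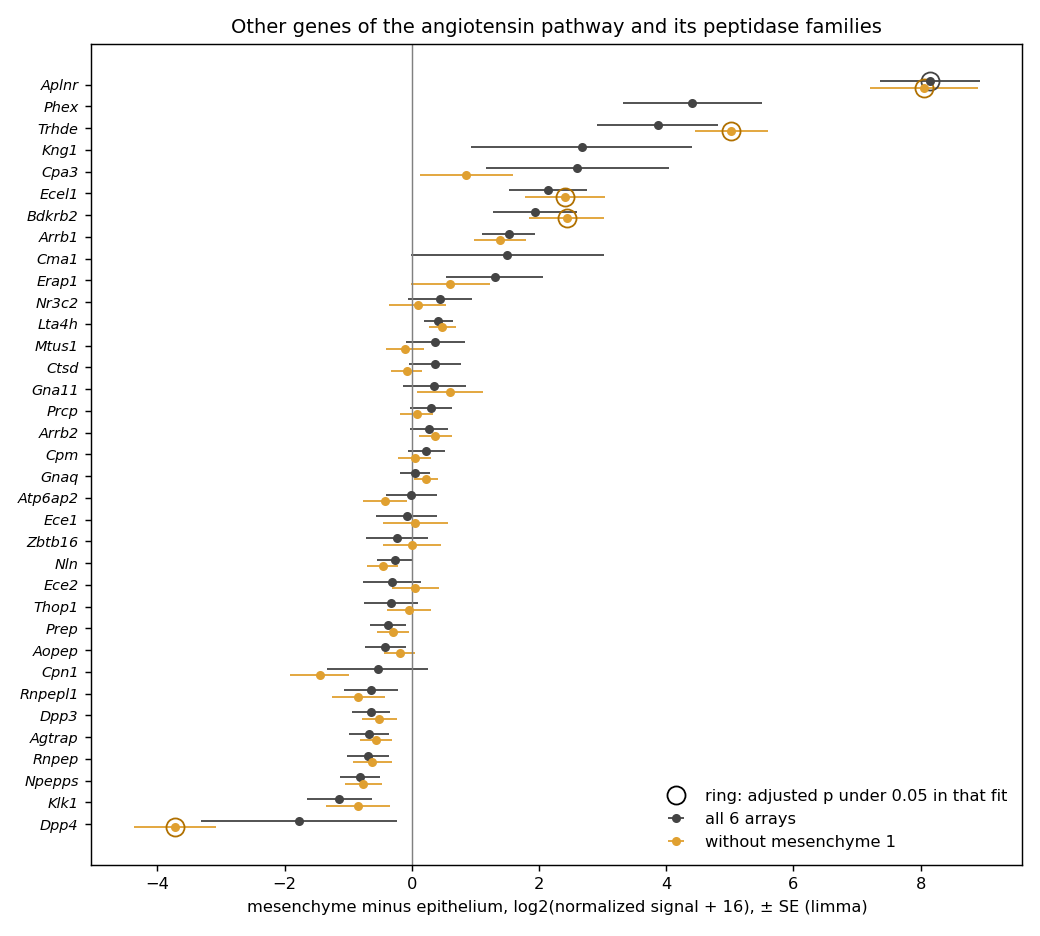
Mesenchyme minus epithelium (log2 scale, ± SE from limma) of the 35 tested genes of the wider pathway, with all 6 arrays (dark) and without mesenchyme 1 (ochre). Rings mark an adjusted p under 0.05 in that fit, which with all arrays only Aplnr carries.

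The genes whose profile over the 6 arrays was most like each member's are given as a description. A shared difference between 2 layers can by itself give a high correlation, and so can a shared excess on mesenchyme 1. It need not, since Agtr1a and Mme both kept the layers apart and correlated at 0.488. For Agtr2 the most similar genes were Lhfpl2, Fermt2 and Klc1 (Pearson r = 0.9987, 0.9984 and 0.9983), and 301 genes had r over 0.95. Lhfpl2 read 8907, 13577 and 11879 in mesenchyme and 835, 1213 and 597 in epithelium, the same order of arrays as Agtr2. For Enpep they were Arhgef15, Trpv2 and Ddc (0.9978, 0.9977 and 0.9975), and for Mme Pcdh12, Prex1 and Tmem26 (0.9993, 0.9979 and 0.9977). For Agtr1a they were Plekha2, St3gal5 and Tnnc1 (0.9985, 0.9977 and 0.9976), each highest on mesenchyme 1. Tnnc1, a troponin of cardiac and slow muscle, read 6600 there, 815 and 353 on mesenchyme 2 and 3, and 98 to 208 in epithelium. Ace had fewer close profiles, with 15 genes over 0.95, led by Palm2, Scamp5 and St6galnac6 (0.9935, 0.9927 and 0.9829).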

How the data were processed

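The deposited table holds 1 probe set intensity per array on a linear scale; GCOS is named per the submitters' processing notes, with version and settings not given in the sources used here. The authors' intensities carry a common scaling, since the mean without the top and bottom 2% was 1500 on each array, with medians of 125.9 to 254.2. The number of arrays limits the precision.

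After leaving out 64 controls of 45101 probe sets, intensities were quantile normalized as log2(signal + 16). By the platform annotation 34945 probe sets name 1 gene, 932 several and 9160 are unnamed here. Each gene was read by its probe set of highest mean, and those over the 40th percentile (13717 genes) were fitted with limma 3.58.1 in R 4.3.3 (eBayes with trend, no covariate, Benjamini-Hochberg over all genes, threshold 0.05). Members have means, SDs and standard errors from their own arrays. Wider-pathway genes were named where called (up to 4 a list), else by brightness. The 3 most similar genes by Pearson correlation, without cross-matching _x_at sets, were named for each tested member. The code was tested on simulated data. The members, lists and tests were chosen with earlier results of these data known. Alternatives were other offsets, normalizations, filters, probe set rules and variance models, a block for the replicate number, and leaving out each array.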

Additional observations from a re-analysis of the deposited data

How the results depend on the processing

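The differences of the 7 genes moved by less than 1 SD between arrays under every alternative run, leaving out each array included. With no normalization, offsets of 1 and 64, median centring, either filter, the mean of probe sets, unique probe sets only (no value for Anpep), no variance trend and the block, Agtr2 lay between 5.88 and 6.60, Agtr1a 2.75 and 3.73, Agt 1.29 and 2.75, Ace 0.61 and 1.11, Enpep 5.52 and 6.13, Mme 2.13 (mean of probe sets) and 2.77, and Anpep 0.13 and 0.59. With each array left out the ranges were 5.96 to 6.77, 1.92 to 3.87, -0.04 to 2.62, 0.58 to 1.08, 5.32 to 6.02, 2.38 to 3.35 and -0.07 to 0.60. For Agt, Agtr1a and Mme the SD is itself enlarged by mesenchyme 1, at 2.16, 1.56 and 0.79 with that array and 0.30, 0.53 and 0.41 without it. Leaving out mesenchyme 1 moved each of these genes by more than its SD without that array. Genes called over all genes numbered 553 higher in mesenchyme and 267 higher in epithelium, and with each array left out 115 to 1110 and 27 to 865, lowest without epithelium 1 and highest without mesenchyme 1 in both directions. Called genes of the wider pathway ranged from 1 to 4 (higher in mesenchyme) and 0 to 1 (higher in epithelium) with each array left out, and numbered 3 without normalization (Arrb1 and Trhde added) and 3 with median centring (Phex and Trhde added), where the cause was not tested. The labels share numbers 1 and 2 between layers without saying that they mark an embryo. The deviations of same-numbered arrays from their layer means correlated at r = -0.0453 and -0.0209. Mesenchyme 1, which stood apart, enters these means, so the correlations cannot decide whether a shared number marks the same embryo. With the replicate number as a block, which leaves few degrees of freedom, 0 genes were called in either direction, 0 of them in the wider pathway. Mesenchyme 3 and epithelium 5 share no number with the other layer. The block differences therefore rest on the arrays numbered 1 and 2, mesenchyme 1 among them. Without detection calls, the dim readings of Agt, Anpep and epithelial Agtr2 have no stated limit.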
